A study of Arabidopsis thaliana with 39 samples.

Results

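The genes described here are the 10 members of the cytosolic chaperone machinery that the study's files list under the locus identifiers of HSP101, of 5 cytosolic HSP70 proteins and of 4 cytosolic HSP90 proteins. They were chosen by identifier from the 32678 genes in each file: HSP101 (AT1G74310), HSP70-4 (AT3G12580), HSC70-1 (AT5G02500), HSP70-2 (AT5G02490), HSC70-3 (AT3G09440), HSP70b (AT1G16030), HSP90.1 (AT5G52640), HSP90.2 (AT5G56030), HSP90.3 (AT5G56010) and HSP90.4 (AT5G56000). All 10 passed the filter on low counts and were among the 20748 genes tested. Polyadenylated RNA of whole Arabidopsis thaliana seedlings grown for 5 days on solid medium was sequenced in 36 libraries, which fall into 12 groups of 3 replicates. The seedlings had received methylglyoxal (MG, 200 µM for 12 h), salt (NaCl, 100 mM for 12 h) or no treatment (mock). The 4 genotypes were the glyI2 mutant, the lines OE1 and OE5, labelled 35S::GLYI2 35S::GLYII4 #1 and #5, and wild type (WT). GLYI2 and GLYII4 are glyoxalases, enzymes that detoxify MG, and 35S is a viral promoter active in most plant tissues. OE1 and OE5 are each a single line, and the labels give neither the allele of glyI2 nor separate cultures, so the p-values cover only variation among libraries, part of which may be technical.

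HSP70 proteins bind exposed hydrophobic stretches of unfolded proteins in a cycle of ATP hydrolysis that J-domain proteins start and nucleotide exchange factors end. HSP90 dimers act later, on nearly folded clients such as kinases and immune receptors, and HSP101, a hexameric AAA+ ATPase of the ClpB family, pulls proteins out of aggregates together with HSP70. In plants, as in other eukaryotes, each family has constitutive members and members that heat shock factors induce when unfolded proteins build up. MG is a reactive dicarbonyl formed as a by-product of glycolysis that modifies arginine and lysine side chains of proteins.

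Library totals were between 21024878 and 22383131 counts, and no pair of libraries held identical counts. The gene AT1G08110, taken here as GLYI2, averaged 7.93 ± 2.25 CPM (counts scaled to library depth) in glyI2 mock libraries and 61.3 ± 8.23 CPM in WT mock libraries (SD, n = 3 each). GLYI2 was not raised in mock libraries labelled OE1 (28.1 ± 6.98 CPM) or OE5 (51.3 ± 6.72 CPM), where it was lower in OE1 (-1.13 ± 0.22, edgeR adjusted p = 0.0358), which goes against that part of the label, while GLYII4 (AT2G43430) averaged 31.0 ± 4.08 CPM in OE1, 32.1 ± 5.99 CPM in OE5 and 10.7 ± 1.53 CPM in WT. Under MG GLYII4 averaged 300.0 ± 74.3 CPM in OE1, 265.4 ± 91.0 CPM in OE5 and 11.7 ± 1.75 CPM in WT, and its MG response was larger than that of WT by 3.15 ± 0.36 in OE1 (edgeR adjusted p = 2.82e-05) and 2.93 ± 0.36 in OE5 (adjusted p = 0.000123) on the log2 scale. Seedling tissue markers were present: RBCS1A and CAB1 of green tissue and CASP1 and PHT1;1 of the root were above 0 in every library. Of the seed genes, CRU3 was listed at 0 in 29 libraries and OLEO1 in 16. Their highest counts in any library were 12 for CRU3 and 13 for OLEO1. In 7 libraries the morning clock gene CCA1 stood between -1.91 and 1.08 log2 CPM, against 4.24 to 6.31 in the other 29. The clock gene LHY was also lower in these 7 (1.49 to 3.07 against 6.1 to 7.27). So were the green tissue marker LHCB2.2 (3.6 to 5.86 against 9.41 to 11.56) and the root marker IRT1. The clock genes TOC1 (5.86 to 6.16 against 4.09 to 4.91), PRR5 and FKF1 were higher, without overlap. RBCS1A, CAB1, CASP1 and PHT1;1 overlapped. These 7 libraries are replicate 3 of mock and NaCl in glyI2, OE1 and OE5 and replicate 3 of NaCl in WT. Calls of members that were lost without them are given below, with the HSP70-4 values for MG against mock. Most other values include these libraries.

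In mock seedlings the 10 genes covered a wide range of levels, compared between genes on the authors' FPKM scale (fragments scaled by transcript length and library depth). HSC70-1, the main constitutive cytosolic HSP70, was the most abundant, with a median of 1059 FPKM over the 12 mock libraries (lowest 966.8, highest 1556), and its rank among all genes lay between 41 and 100 in every library. HSC70-3, another constitutive HSP70, followed with a median of 123.5 FPKM, and the constitutive HSP90.2 and HSP90.3 had medians of 102.7 and 82.4 FPKM. The other 6 genes were lower in mock libraries. HSP70-4 had a median of 44.8 FPKM, HSP70-2 of 21.4, HSP90.4 of 12.2, HSP90.1 of 7.34, HSP101 of 3.12 and HSP70b of 1.18 FPKM. Under MG HSC70-1 stayed first with a median of 1116 FPKM, but HSP70-4, with 289.3 FPKM, stood above HSP90.2, with 128.1, and HSP90.1 reached 68.2 FPKM, next to HSP70-2 with 68.95. HSP101 had a median of 19.2 FPKM and HSP70b of 5.33 FPKM in the 12 MG libraries, and HSP70b remained the lowest of the 10.

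**Figure D1:**
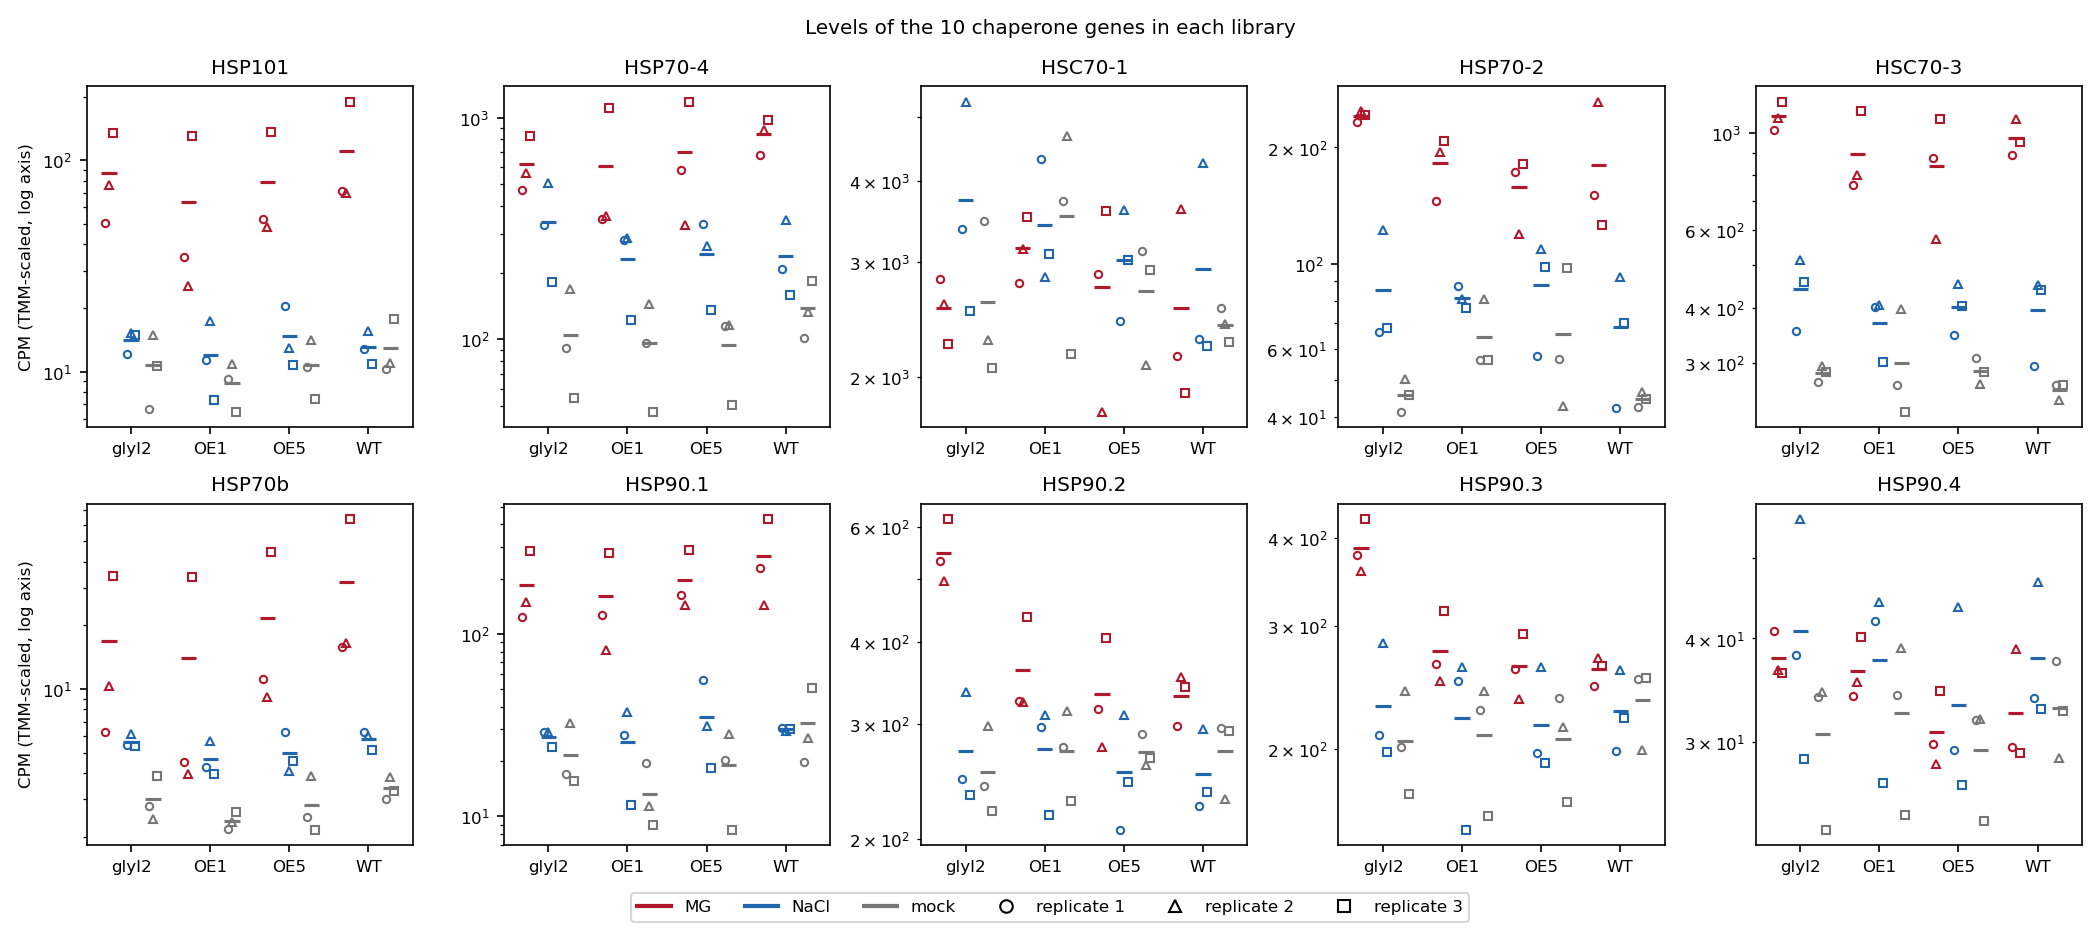
Level of each of the 10 chaperone genes in the 36 libraries (TMM-scaled CPM, log axis), by genotype and treatment. Symbols are single replicates and bars the mean of 3. For HSP101, HSP70-4, HSP70b and HSP90.1 replicate 3 is the highest MG library in all 4 genotypes, and HSC70-1 shows no ordering of the treatments.

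MG raised 6 of the 10 chaperone genes in all 4 genotypes. HSP101, HSP70-4, HSP70-2, HSC70-3, HSP70b and HSP90.1 rose in glyI2, OE1, OE5 and WT, HSP90.2 and HSP90.3 rose in glyI2 as well, and HSC70-1 and HSP90.4 passed the test in no genotype. That is 8 of 10 members higher under MG in glyI2, where 14.4% of all tested genes were higher, and 6 of 10 in OE1, OE5 and WT, where 5.85%, 4.74% and 6.42% of all tested genes were higher (edgeR quasi-likelihood test over all 36 libraries, Benjamini-Hochberg adjusted p under 0.05). None of the 10 was lower. The median log2 fold change of the 10 genes was 2.17 in glyI2, 1.54 in OE1, 1.41 in OE5 and 1.95 in WT, and the median of all tested genes lay between -0.09 and 0 in each. In whole seedlings, fewer cells of a type and less RNA per cell cannot be told apart. Of 11 tested clock and tissue markers, 3 fell under MG in glyI2, 1 in OE1, 1 in OE5 and 2 in WT, and 1 rose in WT, where 14.8%, 3.94%, 4.09% and 4.26% of all tested genes were lower in glyI2, OE1, OE5 and WT. The root marker CASP1 fell under MG in the 4 genotypes, by 2.11 in glyI2, 1.82 in OE1, 1.90 in OE5 and 1.64 in WT on the log2 scale. The summed level of the 3 root markers (CASP1, IRT1 and PHT1;1) was 14.8 to 29.0 FPKM in glyI2 MG libraries and 90.9 to 159.2 in glyI2 mock libraries. This sum overlapped between MG and mock in OE1 (95.6 to 137.0 and 112.5 to 149.5 FPKM), OE5 (78.4 to 102.6 and 76.1 to 142.3) and WT (75.0 to 140.5 and 87.8 to 137.0). PHT1;1 had the highest median of the 3 over all libraries, 57.6 FPKM, against 20.7 for CASP1 and 0.81 for IRT1. The sum of the 3 green tissue markers overlapped between MG (28080 to 56400 FPKM) and mock (25050 to 56050 FPKM). IRT1 was at 0 in 2 libraries and the other 5 root and green tissue markers were above 0 in all. The part of these markers in the chaperone results was not tested.

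HSP101, the disaggregase needed for acquired heat tolerance, had 50.3, 76.7 and 134 CPM in the 3 glyI2 MG libraries, against 6.68, 14.9 and 10.6 CPM in glyI2 mock libraries. In OE1 it had 35.0, 25.5 and 130.0 CPM under MG and 9.25, 10.9 and 6.46 CPM in mock, and in OE5 53.0, 48.3 and 137 CPM under MG and 10.6, 14.1 and 7.39 CPM in mock. In WT it had 71.2, 69.9 and 189.7 CPM under MG and 10.3, 10.99 and 17.7 CPM in mock. Every MG library was above every mock library of its genotype, and in each genotype replicate 3 was the highest. The log2 fold changes were 3.02 ± 0.54 in glyI2 (adjusted p = 8.19e-05), 2.84 ± 0.54 in OE1 (adjusted p = 0.000374), 2.89 ± 0.54 in OE5 (adjusted p = 0.000299) and 3.08 ± 0.54 in WT (adjusted p = 0.000126; edgeR, ± SE). Without MG replicate 3 the change was 1.78 ± 0.48 in OE1 (adjusted p = 0.017), 2.24 ± 0.53 in OE5 (adjusted p = 0.00595) and 2.44 ± 0.53 in WT (adjusted p = 0.00208), each a fold over 1.5 times smaller and still past the threshold.

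Among the HSP70 genes, HSP70-4 is a heat-inducible cytosolic member. Its MG libraries held 473, 563.5 and 823 CPM in glyI2, 351, 359.7 and 1107 CPM in OE1, 584, 327 and 1184 CPM in OE5 and 677.5, 882 and 977.5 CPM in WT. Its mock libraries held 91.5, 168 and 54.2 CPM in glyI2, 96.6, 145 and 47.1 CPM in OE1, 115, 116 and 50.6 CPM in OE5 and 102, 132 and 184 CPM in WT. Groups did not overlap in any genotype, and in glyI2, OE1 and OE5 the lowest mock library was replicate 3, one of those with low CCA1. The log2 fold change was 2.57 ± 0.56 in glyI2 (adjusted p = 0.000767), 2.66 ± 0.56 in OE1 (adjusted p = 0.00124), 2.89 ± 0.57 in OE5 (adjusted p = 0.000531) and 2.60 ± 0.56 in WT (adjusted p = 0.00138). Without MG replicate 3 it was 1.89 ± 0.54 in OE1 (adjusted p = 0.0275) and 2.28 ± 0.56 in OE5 (adjusted p = 0.00881). Across the 7 libraries with low CCA1, HSP70-4 was lower than in its group mates in 7 of 7, with log2 differences of -1.33 to -0.77, and without those libraries its MG change was 2.31 ± 0.52 in glyI2 (adjusted p = 0.00175), 2.28 ± 0.52 in OE1 (adjusted p = 0.00463), 2.59 ± 0.53 in OE5 (adjusted p = 0.00164) and 2.60 ± 0.45 in WT (adjusted p = 0.000214).

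HSC70-3 and HSP70-2, cytosolic HSP70 genes that were expressed in all mock libraries, had the narrowest errors of the 6 genes that rose. HSC70-3 had 1014, 1078 and 1176 CPM in glyI2 MG libraries and 271, 295 and 287 CPM in glyI2 mock libraries, and 889, 1074 and 951 CPM in WT MG libraries against 267, 247 and 268 CPM in WT mock libraries. In OE1 and OE5 its MG libraries ranged from 572.7 to 1122 CPM and its mock libraries from 232.7 to 398.6 CPM. All MG libraries were thus above all mock libraries of the 4 genotypes, and the log2 fold change was 1.94 ± 0.23 in glyI2 (adjusted p = 1.18e-07), 1.58 ± 0.23 in OE1 (adjusted p = 6.95e-06), 1.55 ± 0.23 in OE5 (adjusted p = 9.87e-06) and 1.90 ± 0.23 in WT (adjusted p = 4.03e-07). HSP70-2, which is encoded directly beside HSC70-1 on chromosome 5, had 233, 249 and 243 CPM under MG and 41.3, 50.2 and 45.8 CPM in mock in glyI2. It had 145, 194 and 207 CPM against 56.3, 81.2 and 56.3 CPM in OE1, 173, 119 and 181 CPM against 56.5, 42.7 and 97.4 CPM in OE5, and 151, 263 and 126 CPM against 42.6, 46.5 and 44.7 CPM in WT, the MG values standing before the mock values. The highest mock library of OE5 was replicate 3, whose CCA1 was low, and it lay below the lowest OE5 MG library. The log2 fold change of HSP70-2 was 2.40 ± 0.32 in glyI2 (adjusted p = 1.03e-06), 1.5 ± 0.31 in OE1 (adjusted p = 0.00104), 1.27 ± 0.31 in OE5 (adjusted p = 0.00576) and 2.01 ± 0.32 in WT (adjusted p = 2.71e-05). In OE5 the call was lost when OE5 mock replicate 2 was left out (1.04, adjusted p = 0.0589) and when only OE5 MG and mock libraries were fitted (1.26, adjusted p = 0.0707).

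HSP70b, a heat-induced HSP70 that was the lowest of the 10 at rest, rested most on one replicate. It had 6.25, 10.3 and 34.3 CPM in glyI2 MG libraries against 2.79, 2.41 and 3.875 CPM in mock, and 4.49, 3.95 and 33.8 CPM in OE1 MG libraries against 2.17, 2.355 and 2.615 CPM in mock. In OE5 it had 11.15, 9.185 and 44.4 CPM under MG and 2.48, 3.86 and 2.155 CPM in mock, and in WT 15.8, 16.5 and 63.5 CPM under MG and 3.02, 3.82 and 3.29 CPM in mock. No groups overlapped, and MG replicate 3 was above the mean of the other 2 MG replicates by 1.97 to 2.98 on the log2 scale in the 4 genotypes. The log2 fold change was 2.48 ± 0.69 in glyI2 (adjusted p = 0.00661), 2.56 ± 0.70 in OE1 (adjusted p = 0.0145), 2.92 ± 0.70 in OE5 (adjusted p = 0.00471) and 3.24 ± 0.70 in WT (adjusted p = 0.00147). Without MG replicate 3 it was 1.49 ± 0.67 in glyI2 (adjusted p = 0.112), 0.82 ± 0.62 in OE1 (adjusted p = 0.648), 1.84 ± 0.67 in OE5 (adjusted p = 0.121) and 2.26 ± 0.67 in WT (adjusted p = 0.0291), so that only the WT call was kept. Leaving out any of the 3 OE1 mock libraries also ended the OE1 call (adjusted p = 0.0584, 0.0578 and 0.0526 for replicates 1, 2 and 3), as did a fit of OE1 MG and mock libraries alone (adjusted p = 0.135). Without the libraries with low CCA1 the OE1 and OE5 calls were lost too (2.58 ± 0.94, adjusted p = 0.0996, and 2.75 ± 0.91, adjusted p = 0.0697).

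HSC70-1 did not pass the test. Its 12 MG libraries spanned 1769 to 3617 CPM and its 12 mock libraries 2065 to 4679 CPM, which overlapped in every genotype, and its log2 fold change was -0.03 ± 0.33 in glyI2, -0.16 ± 0.33 in OE1, 0.02 ± 0.33 in OE5 and 0.09 ± 0.33 in WT. The 95% intervals reached at most -0.80 in OE1 and 0.73 in WT. HSC70-1 made up most of the HSP70 message, and the family's makeup is given beside its total. HSC70-1 gave 55.5% of the summed cytosolic HSP70 FPKM in glyI2 MG libraries and 84.6% in glyI2 mock libraries, 65.0% and 87.8% in OE1, 61.1% and 85.0% in OE5, and 53.85% and 83.7% in WT. HSC70-3 gave 24.6% of the sum under MG against 10.1% in mock in glyI2 and 22.1% against 9.46% in WT. HSP70-4 gave 14.03% under MG against 3.65% in mock in glyI2 and 19.4% against 5.08% in WT. The family sum was 2191 ± 116 FPKM under MG and 1279 ± 86.2 in mock in glyI2, 1769 ± 246 and 1483 ± 282 in OE1, 1729 ± 431 and 1329 ± 143 in OE5, and 1784 ± 161 and 1238 ± 43.5 in WT (SD, n = 3 each).

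**Figure D2:**
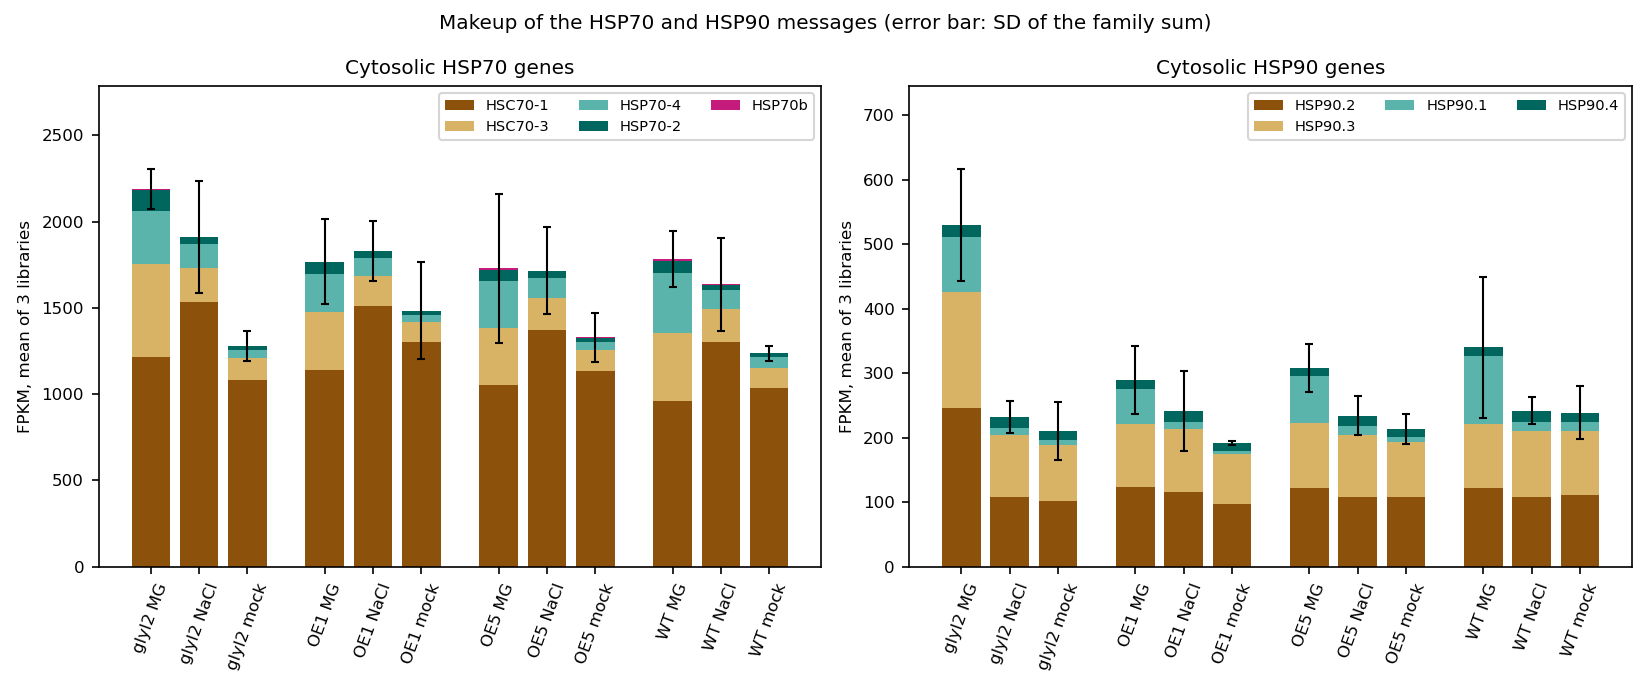
Stacked mean FPKM of the 5 cytosolic HSP70 genes (left) and the 4 cytosolic HSP90 genes (right) in each group of 3 libraries, with the SD of the family sum. HSC70-1 fills most of the HSP70 bar in mock libraries and a smaller share in MG libraries. The HSP90 sum of glyI2 under MG, 530.4 FPKM, is the tallest of the 12.

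HSP90.1 is the heat-inducible cytosolic HSP90. It had 124, 149 and 286 CPM in glyI2 MG libraries against 17.0, 32.4 and 15.5 CPM in mock, and 127.5, 81.3 and 279 CPM in OE1 MG libraries against 19.55, 11.4 and 8.915 CPM in mock. In OE5 it had 165, 144.0 and 289 CPM under MG and 20.45, 28.15 and 8.45 CPM in mock, and in WT 229.9, 144 and 425.5 CPM under MG and 19.8, 27.0 and 50.35 CPM in mock. All MG libraries were above all mock libraries, replicate 3 again being the highest MG library of each genotype. The log2 fold change was 3.11 ± 0.55 in glyI2 (adjusted p = 7.17e-05), 3.61 ± 0.57 in OE1 (adjusted p = 2.74e-05), 3.39 ± 0.56 in OE5 (adjusted p = 6.1e-05) and 3.04 ± 0.55 in WT (adjusted p = 0.000178). In OE1 it was 2.98 ± 0.55 without MG replicate 3 (adjusted p = 0.000395). HSP90.1 gave 15.6% of the summed cytosolic HSP90 FPKM under MG against 4.11% in mock in glyI2, 18.23% against 2.49% in OE1, 23.52% against 3.53% in OE5 and 28.8% against 5.60% in WT.

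The constitutive HSP90 genes lie together on chromosome 5, HSP90.4 directly beside HSP90.3 and 1 gene between HSP90.3 and HSP90.2. HSP90.2 had 532, 497 and 617 CPM in the glyI2 MG libraries and 241, 298 and 221 CPM in glyI2 mock libraries, and HSP90.3 had 377, 359 and 424.5 CPM under MG and 201, 242 and 173 CPM in mock. In WT, HSP90.2 had 298, 355 and 342 CPM under MG and 296, 231 and 292 CPM in mock, and HSP90.3 had 246.5, 270.0 and 263 CPM under MG and 252, 199.8 and 253 CPM in mock. The glyI2 MG libraries were the highest 3 of all 36 for both genes. In glyI2, HSP90.2 rose by 1.11 ± 0.20 (adjusted p = 7.52e-05) and HSP90.3 by 0.91 ± 0.20 (adjusted p = 0.000986) on the log2 scale. In OE1, OE5 and WT the change of HSP90.2 was 0.41 ± 0.20, 0.29 ± 0.20 and 0.28 ± 0.20 (adjusted p = 0.262, 0.53 and 0.563) and that of HSP90.3 was 0.40 ± 0.20, 0.34 ± 0.20 and 0.15 ± 0.20 (adjusted p = 0.303, 0.433 and 0.86). HSP90.4, the least abundant of these genes, had changes of 0.31 ± 0.23 in glyI2, 0.17 ± 0.23 in OE1, 0.07 ± 0.23 in OE5 and -0.02 ± 0.23 in WT, none past the threshold. The 4 HSP90 genes summed to 530.4 ± 87.1 FPKM in glyI2 MG libraries against 210.3 ± 45.2 in glyI2 mock libraries, and to 340.3 ± 109 FPKM in WT MG libraries against 238.7 ± 41.0 in WT mock libraries.

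**Figure D3:**
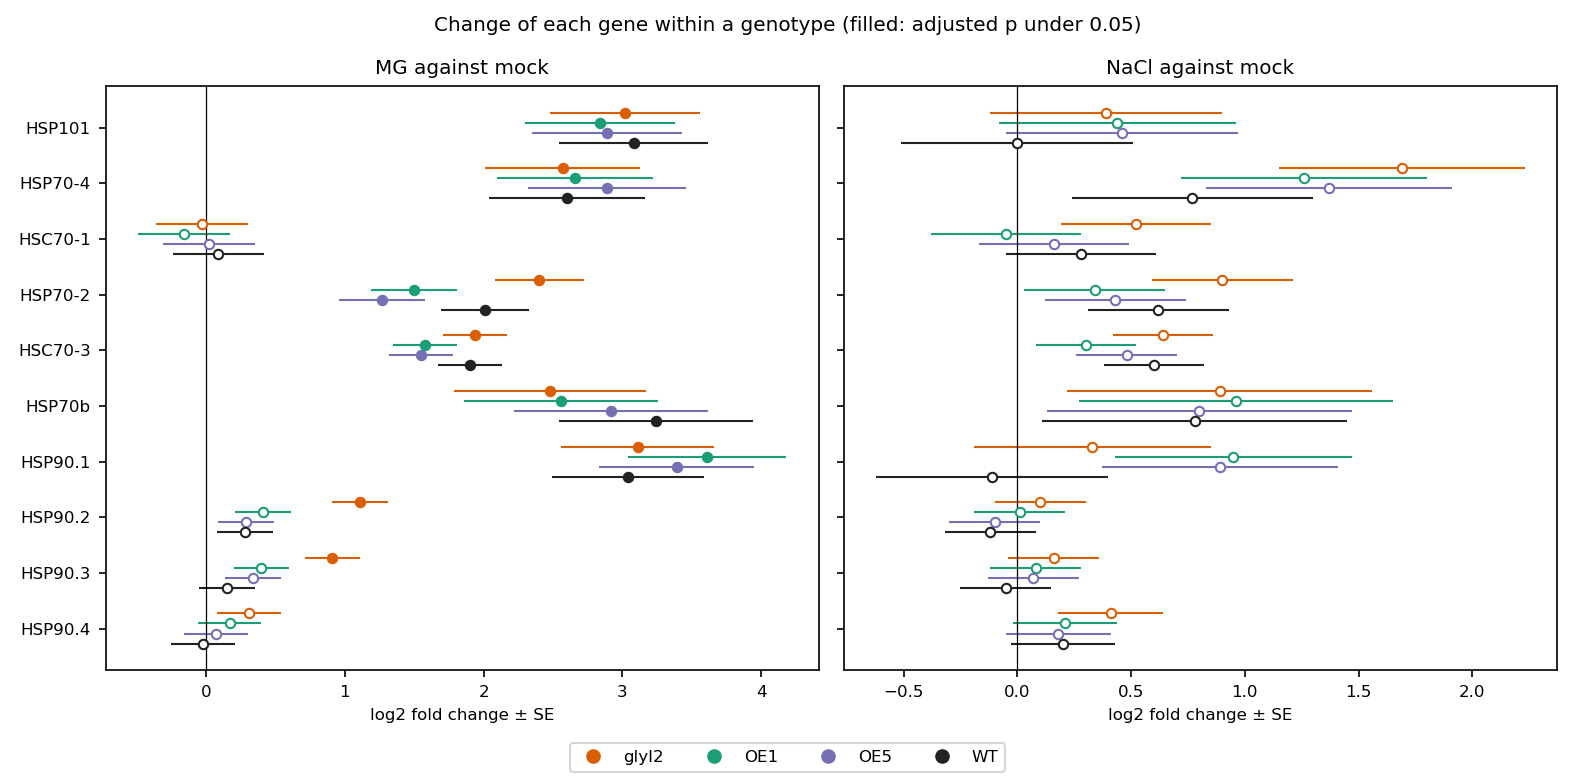
Log2 fold change (points) ± SE of each gene within each genotype, for MG against mock (left) and NaCl against mock (right). Filled points passed an adjusted p of 0.05 in edgeR. 6 genes are filled in all 4 genotypes under MG, HSP90.2 and HSP90.3 also in glyI2, and none under NaCl.

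Whether the MG response differed from that of WT was tested as the difference of the log2 fold changes. No member passed in glyI2, where 3.97% of all tested genes did, nor in OE1 or OE5, where 0.00482% did in each. At an unadjusted p under 0.05 there were 2 members for glyI2 and 0 for OE1 and OE5, and DESeq2 called 1, 0 and 0. In glyI2 the difference was 0.83 ± 0.28 for HSP90.2 (95% interval 0.29 to 1.38, edgeR adjusted p = 0.0943) and 0.77 ± 0.29 for HSP90.3 (0.20 to 1.33, adjusted p = 0.143). The member DESeq2 called was HSP90.2 (0.87, adjusted p = 0.0446), and it gave HSP90.3 0.80 (adjusted p = 0.094). Without the libraries with low CCA1 the edgeR difference was 0.79 ± 0.28 for HSP90.2 (adjusted p = 0.114) and 0.70 ± 0.24 for HSP90.3 (adjusted p = 0.0911). For the 6 genes that rose in every genotype the differences between glyI2 and WT lay between -0.76 (HSP70b, 95% interval -2.58 to 1.06) and 0.39 (HSP70-2, -0.46 to 1.23). The lines OE1 and OE5 gave -0.52 (-1.36 to 0.33) and -0.74 (-1.59 to 0.10) for HSP70-2, and 0.57 (-0.85 to 2.00) and 0.35 (-1.07 to 1.77) for HSP90.1. The intervals reach beyond a 2-fold difference in at least 1 line for all members but HSC70-3 and HSP90.4.

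**Figure D4:**
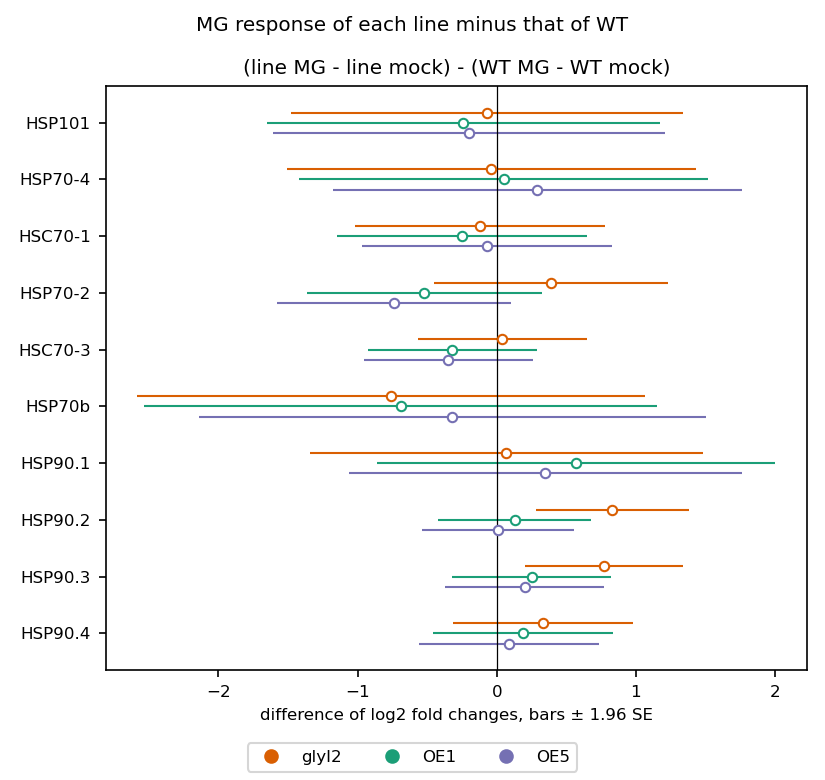
Difference between the MG response of glyI2, OE1 or OE5 and that of WT for each gene (log2 scale, bars are 95% intervals). All 30 points are open because none passed an adjusted p of 0.05. The glyI2 intervals of HSP90.2 and HSP90.3 lie above 0.

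Salt at 100 mM raised none of the 10 genes past the threshold. No member passed in glyI2, OE1, OE5 or WT, where 7.05%, 5.33%, 5.48% and 7.12% of all tested genes changed in either direction (edgeR). At an unadjusted p under 0.05 there were 3 members in glyI2, 1 in OE1, 2 in OE5 and 1 in WT, and DESeq2 called 3, 0, 0 and 0. HSP70-4 had 326.5, 509 and 181 CPM in glyI2 NaCl libraries against 91.5, 168 and 54.2 CPM in mock, and 209, 347 and 158 CPM in WT NaCl libraries against 102, 132 and 184 CPM in mock. The groups were apart in glyI2 and overlapped in WT. Its log2 fold change was 1.69 ± 0.54 in glyI2 (adjusted p = 0.0553), 1.26 ± 0.54 in OE1 (adjusted p = 0.198), 1.37 ± 0.54 in OE5 (adjusted p = 0.154) and 0.77 ± 0.53 in WT (adjusted p = 0.482). In glyI2, OE1 and OE5 replicate 3 had low CCA1 in both NaCl and mock, but in WT only in NaCl. Without the 7 libraries with low CCA1 the WT change of HSP70-4 was 1.01 ± 0.47 (edgeR adjusted p = 0.224). The 3 genes DESeq2 called in glyI2 were HSP70-4 (1.74, adjusted p = 0.0162), HSC70-3 (0.67, adjusted p = 0.0353) and HSP70-2 (0.94, adjusted p = 0.0393), which edgeR gave as 0.64 ± 0.22 (adjusted p = 0.0819) for HSC70-3 and 0.90 ± 0.31 (adjusted p = 0.0747) for HSP70-2. Without glyI2 NaCl replicate 3, whose CCA1 was low, HSP70-4 (2.00, adjusted p = 0.027) and HSP70-2 (1.06, adjusted p = 0.0464) passed in edgeR, and without all 7 such libraries no member did in any genotype. The glyI2 changes without those 7 were not smaller than with them. They were 1.74 ± 0.53 for HSP70-4 (edgeR adjusted p = 0.0501) and 1.09 ± 0.37 for HSP70-2 (adjusted p = 0.0802).

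HSP70b was higher in every NaCl library than in every mock library of its genotype, with 3.965 to 6.28 CPM in the 12 NaCl libraries and 2.155 to 3.875 CPM in the 12 mock libraries, but its changes of 0.78 to 0.96 had SEs of 0.67 to 0.69. HSC70-3 was likewise apart in glyI2, OE5 and WT (WT change 0.60 ± 0.22, edgeR adjusted p = 0.105), HSP70-4 in glyI2 and OE5, and HSP70-2 in glyI2. How many of all tested genes had groups apart in this way, under NaCl or MG, was not counted. HSP101 had a log2 fold change of 0.39 ± 0.51 in glyI2, 0.44 ± 0.52 in OE1, 0.46 ± 0.51 in OE5 and 0 ± 0.51 in WT, and the changes of HSP90.2 and HSP90.3 lay between -0.12 and 0.16 with SEs of 0.20. The difference of the NaCl response from that of WT passed for no member in glyI2, OE1 or OE5, and for 0% of all tested genes in each. There were 0 members at an unadjusted p under 0.05 and 0 by DESeq2 in those 3 comparisons.

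The direct contrast of MG with NaCl does not use the mock means that both responses share. The mock libraries still enter the filter, the scaling and the estimate of spread of the fit. Under MG, 6 members were higher than under NaCl in glyI2, 4 in OE1, 4 in OE5 and 6 in WT, where 15%, 6.95%, 5.18% and 6.11% of all tested genes were higher, and no member was lower. HSP101, HSC70-3 and HSP90.1 were called in the 4 genotypes. HSP101 was higher by 2.63 ± 0.53 in glyI2 (adjusted p = 0.000344), 2.40 ± 0.53 in OE1 (adjusted p = 0.0021), 2.43 ± 0.53 in OE5 (adjusted p = 0.00214) and 3.08 ± 0.54 in WT (adjusted p = 0.000159), and without MG replicate 3 it was 1.34 in OE1 (adjusted p = 0.0948), 1.78 in OE5 (adjusted p = 0.037) and 2.44 in WT (adjusted p = 0.00264). The OE1 call was also lost with only the OE1 MG and NaCl libraries in the fit (adjusted p = 0.0747). HSP90.1 was higher by 2.77 ± 0.54 in glyI2, 2.66 ± 0.54 in OE1, 2.50 ± 0.54 in OE5 and 3.15 ± 0.55 in WT, and by 2.03 in OE1 without MG replicate 3 (adjusted p = 0.0164). HSC70-3 was higher by 1.3 ± 0.22 in glyI2, 1.27 ± 0.22 in OE1, 1.06 ± 0.22 in OE5 and 1.3 ± 0.22 in WT, and its OE5 call was lost with only the OE5 MG and NaCl libraries in the fit (adjusted p = 0.0907). HSP70-2 was called in glyI2 (1.5 ± 0.31, adjusted p = 0.000449), OE1 (1.16 ± 0.31, adjusted p = 0.0112) and WT (1.4 ± 0.31, adjusted p = 0.00222). The OE1 call of HSP70-2 was lost without MG replicate 3 (adjusted p = 0.0565) and the WT call with only the WT MG and NaCl libraries in the fit (adjusted p = 0.0921). HSP70-4 differed by 0.87 ± 0.53 in glyI2 (adjusted p = 0.222), 1.39 ± 0.54 in OE1 (adjusted p = 0.0919), 1.52 ± 0.54 in OE5 (adjusted p = 0.0718) and 1.83 ± 0.54 in WT (adjusted p = 0.0245), and the WT call was lost without WT MG replicate 3 (adjusted p = 0.0718), WT NaCl replicate 1 (0.0919) or WT NaCl replicate 3 (0.132). HSP70b was called in OE5 (2.12 ± 0.67, adjusted p = 0.0389) and WT (2.46 ± 0.67, adjusted p = 0.0138), and without MG replicate 3 these values were 1.04 (adjusted p = 0.48) and 1.47 (adjusted p = 0.19). The OE5 call was also lost without any 1 of the 3 OE5 NaCl libraries (adjusted p = 0.0732, 0.12 and 0.114), and the WT call without WT NaCl replicate 3 (adjusted p = 0.0634). Without the 7 libraries with low CCA1 HSP70b differed by 2.0 ± 0.87 in OE5 (adjusted p = 0.149) and 2.37 ± 0.88 in WT (adjusted p = 0.0895), neither of which passed. The OE5 call was lost with no expression filter (adjusted p = 0.0511) and with only the OE5 MG and NaCl libraries in the fit (adjusted p = 0.0719) as well. HSP90.2 and HSP90.3 were called in glyI2, at 1.01 ± 0.20 (adjusted p = 0.000247) and 0.75 ± 0.20 (adjusted p = 0.00551), and the HSP90.3 call was lost with only the glyI2 MG and NaCl libraries in the fit (adjusted p = 0.0595).

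In untreated seedlings no member differed between glyI2, OE1 or OE5 and WT, where 0.0434%, 0.053% and 0.0386% of all tested genes did (edgeR). At an unadjusted p under 0.05 there were 0, 1 and 0 members, and DESeq2 called 0 in each. The 1 member was HSP90.1, with 19.55, 11.4 and 8.915 CPM in OE1 mock libraries and 19.8, 27.0 and 50.35 CPM in WT mock libraries (log2 difference -1.29 ± 0.53, adjusted p = 0.523). HSP90.2 and HSP90.3 had the narrowest intervals, HSP90.2 with a difference of -0.11 in glyI2 (95% interval -0.49 to 0.28), 0 in OE1 (-0.38 to 0.39) and -0.01 in OE5 (-0.39 to 0.38).

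Ordered by mean CPM over the 12 groups, HSP101, HSP70-4, HSP70b and HSP90.1 were highest in WT MG libraries (110.3, 845.8, 31.95 and 266.4 CPM). HSC70-3, HSP70-2, HSP90.2 and HSP90.3 were highest in glyI2 MG libraries (1089, 241.6, 548.6 and 386.9 CPM), and HSC70-1 and HSP90.4 in glyI2 NaCl libraries (3728 and 40.8 CPM). For HSP90.2 and HSP90.3 and also for HSP70-2 every library of the first group lay above every library of the next one, and for the other 7 genes the first and next groups overlapped. The highest HSP70-2 value, 263.1 CPM, was however of a WT MG library, above the glyI2 MG libraries (233.3 to 249.0 CPM). WT MG was at rank 3 by mean for this gene. For HSP101, WT MG libraries averaged 110.3 ± 68.8 CPM and the next group 23.2 CPM less. Over all 36 libraries the highest value exceeded the lowest 50.4-fold for HSP90.1, 29.5-fold for HSP70b, 29.4-fold for HSP101, 25.1-fold for HSP70-4, 6.37-fold for HSP70-2, 5.05-fold for HSC70-3 and 2.37- to 2.99-fold for HSC70-1 and the constitutive HSP90 genes.

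The 10 genes fell into groups by their likeness over the 36 libraries, which share treatment, genotype and depth, so the Pearson r of log2 CPM given here are descriptions. HSP101 and HSP90.1 followed each other at r = 0.972 among the 16940 genes compared. HSP90.1 was most like MBF1C (r = 0.973), a heat-induced transcriptional co-activator, and HSP101 was also like HSP17.8, a small heat shock protein (r = 0.963). HSP70b was most like HSP101 (r = 0.915), and HSP70-4 was most like AT5G25450 (r = 0.961), AT5G54165 and HSP17.6C (r = 0.954 each). HSC70-3 was most like AT3G50910 (r = 0.965), then ATJ2, a J-domain partner of HSP70 (r = 0.963), and CYP81D8 (r = 0.961). HSP70-2 was most like AT5G09800 (r = 0.954), then HSC70-3 and AT5G63130 (r = 0.941 each). HSP90.2 and HSP90.3 were most like each other (r = 0.937). HSP90.4 was most like AT4G38710 (r = 0.88). HSC70-1 stood apart, with r between -0.21 and 0.20 to the other members except HSP90.4 (0.65), and was most like HOG1, an S-adenosylhomocysteine hydrolase (r = 0.937).

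The partners of these chaperones were taken as 4 further lists. Of 20 co-chaperones, 9 rose under MG in glyI2 and 5 each in OE1, OE5 and WT, none fell, and the median log2 fold change was 0.67, 0.45, 0.49 and 0.43. Of all tested genes 14.4% were higher under MG in glyI2, 5.85% in OE1, 4.74% in OE5 and 6.42% in WT. Differences between genotypes in the counts of these lists were not tested. Up to 4 called genes of a list are named per comparison, so a genotype left out for a gene may also have a call. FES1A, a HSP70-binding protein that protects cytosolic HSP70 in heat, averaged 121 ± 36.3 CPM in glyI2 and 125 ± 36.3 CPM in WT under MG and rose by 3.31 ± 0.39 in glyI2 (adjusted p = 1.05e-07), 2.83 ± 0.38 in OE1, 2.88 ± 0.38 in OE5 and 3.52 ± 0.39 in WT (adjusted p = 1.12e-07). CHIP, a ubiquitin ligase that docks on HSP70 and HSP90, rose by 1.27 ± 0.19 in glyI2, 1.13 ± 0.19 in OE1, 1.19 ± 0.19 in OE5 and 1.33 ± 0.19 in WT. ATJ2 rose by 1.06 ± 0.13 in glyI2, 0.73 ± 0.13 in OE1, 0.61 ± 0.13 in OE5 and 0.76 ± 0.13 in WT. HOP3, an adaptor between HSP70 and HSP90, rose by 1.93 ± 0.60 in glyI2, 1.98 ± 0.62 in OE1, 2.27 ± 0.61 in OE5 and 2.2 ± 0.60 in WT. BAG6, a calmodulin-binding BAG-domain protein, rose by 3.39 ± 0.65 in glyI2 (adjusted p = 0.000194) and 2.72 ± 0.65 in WT (adjusted p = 0.00383). Under NaCl, 1 of the 20 co-chaperones rose in each genotype, a share near that of all tested genes higher under NaCl (4.45% in glyI2, 2.98% in OE1, 3.24% in OE5 and 4.43% in WT). It was SQN, a cyclophilin that binds HSP90, by 0.87 ± 0.14 in glyI2 (adjusted p = 0.000194), 0.68 ± 0.14 in OE1, 0.66 ± 0.14 in OE5 and 0.68 ± 0.14 in WT (adjusted p = 0.00256). Under MG the change of SQN was between -0.03 and 0.13.

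Of 13 heat shock regulators 11 were tested, and 6 rose under MG in glyI2, 5 in OE1, 4 in OE5 and 4 in WT, with none lower. The shares of all tested genes higher under MG were 14.4%, 5.85%, 4.74% and 6.42% in glyI2, OE1, OE5 and WT. HSFA2, a heat shock factor that is itself induced by heat, rose by 5.66 ± 0.68 in glyI2 (adjusted p = 1.76e-07), 5.14 ± 0.68 in OE1, 5.40 ± 0.67 in OE5 and 5.66 ± 0.67 in WT (adjusted p = 3.27e-07). DREB2A, a drought and heat transcription factor, rose by 3.78 ± 0.47 in glyI2, 3.56 ± 0.47 in OE1, 3.58 ± 0.47 in OE5 and 3.66 ± 0.47 in WT. MBF1C rose by 2.32 ± 0.50 in glyI2, 2.85 ± 0.51 in OE1, 2.97 ± 0.51 in OE5 and 2.42 ± 0.50 in WT. HSFB2B rose by 1.01 ± 0.23 in OE1, 0.97 ± 0.23 in OE5 and 1.01 ± 0.23 in WT, and HSFB2A rose in glyI2 by 1.78 ± 0.30 (adjusted p = 2.77e-05). Under NaCl HSFA7A fell by 1.94 ± 0.61 in glyI2 (adjusted p = 0.0486) and by 2.0 ± 0.59 in WT (adjusted p = 0.0363), and HSFB2A rose in glyI2 by 0.97 ± 0.29 (adjusted p = 0.0383). Of the 14 small heat shock proteins, which hold unfolded proteins for HSP70 and HSP101, 10 rose under MG in glyI2, 9 in OE1, 10 in OE5 and 11 in WT, beside the same shares of all tested genes. Their median change was 4.78 in glyI2, 3.99 in OE1, 3.89 in OE5 and 3.85 in WT. The mitochondrial HSP23.5 rose by 5.38 ± 0.47 in glyI2, 4.03 ± 0.44 in OE1, 3.54 ± 0.43 in OE5 and 3.76 ± 0.44 in WT, and the cytosolic HSP17.8 by 5.5 ± 0.72 in glyI2, 4.61 ± 0.70 in OE1, 4.79 ± 0.69 in OE5 and 5.28 ± 0.71 in WT. Under NaCl 6, 3, 4 and 4 of these 14 rose in glyI2, OE1, OE5 and WT, where 4.45%, 2.98%, 3.24% and 4.43% of all tested genes were higher. HSP17.4 rose by 4.33 ± 0.95 in glyI2, 3.64 ± 0.96 in OE1, 4.35 ± 0.97 in OE5 and 3.85 ± 0.93 in WT, and HSP22 averaged 15.0 CPM in glyI2, 13.7 in OE1, 17.5 in OE5 and 15.2 in WT under NaCl and was at most 0.208 CPM on average in mock groups.

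The last list held 17 genes of organelle and other HSP70, HSP90 and CLPB proteins, of which 15 were tested. Of these, 4 rose under MG in glyI2, 0 in OE1, 2 in OE5 and 3 in WT, and the median was 0.18, -0.06, 0.09 and 0. Of all tested genes 14.4%, 5.85%, 4.74% and 6.42% were higher, and the counts of this small list are not read as differing from those shares. In OE1 3 of the 15 had an unadjusted p under 0.05. The mitochondrial mtHSC70-2 rose by 1.12 ± 0.19 in glyI2 (adjusted p = 3.78e-05) and 0.85 ± 0.19 in WT (adjusted p = 0.00205), and the mitochondrial HSP101 relative CLPB4 by 1.25 ± 0.33 in glyI2, 1.24 ± 0.33 in OE5 and 1.20 ± 0.33 in WT. HSP70T-2, a truncated HSP70, rose by 1.27 ± 0.38 in glyI2, 1.26 ± 0.38 in OE5 and 1.20 ± 0.38 in WT. mtHSC70-1 rose in glyI2 by 1.44 ± 0.28 (adjusted p = 0.000203) and had a change of 0.64 ± 0.27 in WT (adjusted p = 0.174). Under NaCl none of the 15 passed in any genotype (edgeR; 2 in glyI2, 2 in OE1, 0 in OE5 and 1 in WT at an unadjusted p under 0.05).

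**Figure D5:**
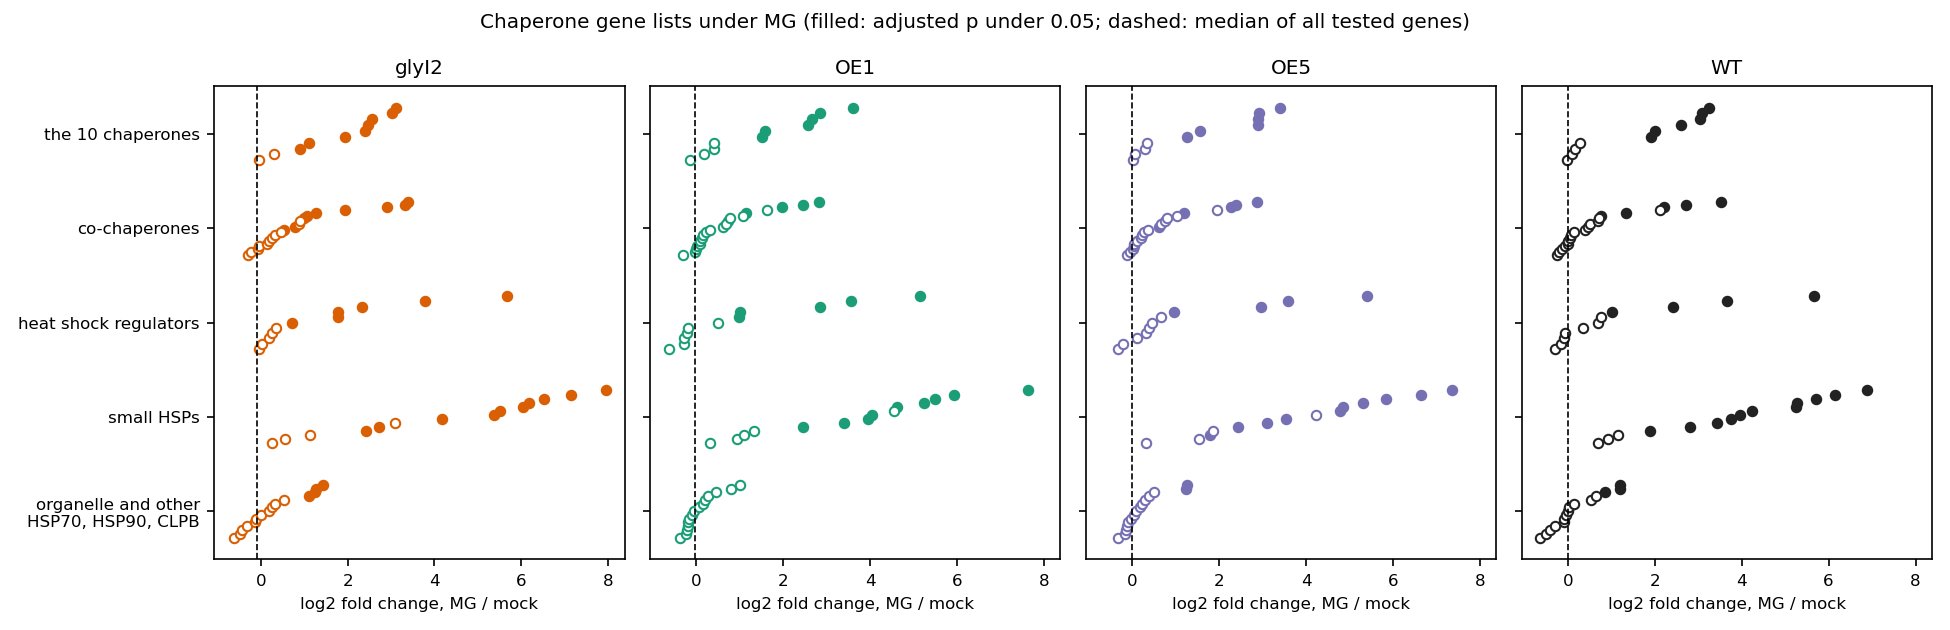
Log2 fold change of MG against mock for each gene of the 5 lists in the 4 genotypes. Each point is 1 gene, filled where the adjusted p was under 0.05, and the dashed line is the median of all tested genes. The small heat shock proteins reach the highest values, and the list of organelle and other proteins lies nearest to the dashed line.

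The HSP70 genes and the HSP90 genes resemble each other closely, and no source used here says how reads matching more than 1 gene were handled. Values of HSP70-2, HSC70-1 and HSC70-3 and of HSP90.2, HSP90.3 and HSP90.4 may include reads of each other. In the annotation HSP101 overlaps AT1G74300, whose highest count in any library was below the lowest HSP101 count of 122, and HSC70-3 overlaps AT3G09430, which reached at most 85 counts against at least 4813 for HSC70-3. No source used here names the strand setting of the counting, so reads of overlapping genes cannot be told apart.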

How the data were processed

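Per the labels' protocols, RNA of seedlings was extracted, enriched with oligo(dT) beads and sequenced on a BGISEQ-500. The deposited file of each library holds a count and an FPKM per gene, made by the authors. The submitters' processing notes name HISAT2 2.0.4, HTSeq and the TAIR10 genome, with no role or order. Strand and multi-mapping settings are not given in the sources used here. The deposited counts of all 36 RNA libraries, 12 groups of 3, were fitted with edgeR 4.0.16 in R 4.3.3 (TMM, filterByExpr by group, robust quasi-likelihood F test on group means, Benjamini-Hochberg over 20748 tested genes, threshold 0.05). The biological coefficient of variation was 28.3%. CPM are TMM-scaled, SE is the absolute log2 fold change divided by the root of F, and 95% intervals use the normal quantile of the SE. The fit was tested on simulated data. FPKM was used to compare genes and for the family sums, shares and marker sums, and was not tested. The authors' FPKM were not TMM-scaled here, so sums of different groups are not on the scale of the CPM. Tables were made with Python and pandas. Alternatives were DESeq2 1.42.0, no filter, a replicate block, fits of the compared groups only, each library left out and, chosen after seeing the data, the 7 libraries with CCA1 below 3 log2 CPM left out.

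The members and lists were chosen with earlier results of these data known, so they are not independent of them. All 10 members are named, of each other list up to 4 called genes with the lowest adjusted p in a comparison (some are left out of the text), and, for likeness, genes from the 3 most like each member, among genes averaging 1 log2 CPM or more (prior count 2). The RefSeq table used for names and neighbours is of assembly TAIR10.1, so no coordinates are given. It does not pair AT1G08110 with the name GLYI2, which is background knowledge. A planned description of protein and promoter sequences was not made, as no sequence was used here. The 3 chromatin samples were not analysed here. Same-numbered replicates were checked for pairing in 15 comparisons: the correlation of deviations from group means was over 0.1 for all 3 pairs in 4 of them (NaCl against mock in OE5, MG against mock in glyI2 and OE5, and MG against NaCl in WT), and the numbers come from the labels. Counts and their errors cover sampling of these libraries only.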

Additional observations from a re-analysis of the deposited data

How the results depend on the processing

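Over 2880 recomputed values of single members, 2643 kept their direction and call, 30 lost and 15 gained a call, no called value changed sign, and 192 that were never called did. Of the 30 lost calls 19 were of HSP70b. For NaCl against mock in glyI2 the count of members called was 0 in the edgeR fit, 2 with the replicate block (HSP70-4 and HSP70-2, adjusted p = 0.0423 and 0.0429), 3 with DESeq2, and 0 to 2 with 1 library left out, and in WT it was 0 to 1 with 1 library left out. For MG against NaCl in OE1 it was 2 to 4 with 1 library left out against 4, and in OE5 2 with the compared groups only against 4. For the difference of the MG response of glyI2 from WT it was 1 with DESeq2 against 0. With the replicate block the member count of MG against NaCl in OE5 was 5 against 4. Apart from this count and that of NaCl against mock in glyI2, the block changed no count of members called. The unchanged counts include the 4 comparisons in which the same-numbered deviations correlated over 0.1 for all 3 pairs.

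Counts over all genes moved more. With the replicate block the genes called for NaCl against mock were 2224 against 1462 in glyI2, 1786 against 1105 in OE1, 1812 against 1136 in OE5 and 2300 against 1478 in WT, and 1447 against 823 for the MG response of glyI2. With the compared groups only they were 216 in glyI2, 500 in OE1 and 293 in OE5 for NaCl against mock, 1139 against 1831 for MG against mock in OE5, 1188 against 2430 in WT and 1010 against 2140 in OE5 for MG against NaCl, and 5, 3 and 1 against 9, 11 and 8 for glyI2, OE1 and OE5 against WT in mock, and 0 against 1 for the MG response of OE5. Without the libraries with low CCA1 the OE5 mock count was 5. DESeq2 called 2, 1 and 1 genes for the NaCl responses of glyI2, OE1 and OE5, where edgeR called 0. Fewer libraries in a fit leave fewer degrees of freedom; otherwise the cause was not tested. The lowest count of a member in any library was 39, of HSP70b.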

Other observations

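MG replicate 3 was above the mean of the other 2 MG replicates in the 4 genotypes for HSP101 (by 1.11 to 2.12 on the log2 scale), HSP70b (1.97 to 2.98), HSP90.1 (0.91 to 1.45) and HSP70-4 (0.34 to 1.64), and less so for HSP90.2 (0.07 to 0.45) and HSP90.3 (0.03 to 0.29). HSC70-1 (-0.56 to 0.67), HSP70-2 (-0.66 to 0.34), HSC70-3 (-0.04 to 0.60) and HSP90.4 (-0.22 to 0.25) showed no common direction. The labels name no batch that this number marks.

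In the 7 libraries with low CCA1, HSP90.2, HSP90.3 and HSP90.4 were below their group mates in 7 of 7, by median differences of -0.28, -0.35 and -0.54 on the log2 scale. HSP90.1 was below in 6 of 7 (median -0.74) and HSP101 in 5 of 7 (median -0.59), HSC70-1 in 5 of 7 (median -0.45) and HSP70b in 5 of 7 (median -0.15). HSC70-3 was below in 2 of 7 and HSP70-2 in 3 of 7. These differences were not tested.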
